A study of Mus musculus with 6 samples.

Results

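A cluster of near-identical gene copies on mouse chromosome 4 was examined in the aorta, the main artery, of mice without endothelial nitric oxide synthase (eNOS) and of wild-type mice. The 10 member genes were Gm3893, Fam205a1, Fam205a2, Il11ra1, Il11ra2, Ccl19, Ccl21a, Ccl21b, Ccl27a and Ccl27b. They were taken up because some of them differed between the genotypes in these same arrays, so their differences are given as descriptions with standard errors and without a test. Every probe set whose annotation listed a member was kept, also where it listed several genes, which gave 55 of the 41345 probe sets. Of the 10 genes, 7 were listed on at least 1 probe set. No probe set of the annotation used here listed Fam205a1, Il11ra1 or Il11ra2, and these genes were not analysed here.

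The eNOS-deficient group held 3 samples, numbered 11, 15 and 19 in their titles, and the wild-type group held 3 age-matched samples, numbered 2, 3 and 5. Total RNA of each sample was labelled with biotin and hybridised to 1 Affymetrix array, which reports RNA signal on a log2 scale. The sources used here do not give the targeted allele, strain, sex or age of the animals, or say whether each sample was a separate animal. With few arrays the precision is limited, and each p-value reflects the spread among these samples alone, which may be technical. The arrays measured RNA and not gene copies, so the name copy-number cluster could not be checked with them.

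CCL19 and CCL21 are chemokines that bind the receptor CCR7 and guide T cells and dendritic cells into lymph nodes. Mice carry more than one Ccl21 gene in this cluster, and a natural deletion in it, known as plt, removes Ccl19 and the Ccl21 copy of lymphoid organs. CCL27 is a skin chemokine made by keratinocytes that binds CCR10. Il11ra1 encodes the receptor subunit that binds interleukin-11 and signals through gp130, and Il11ra2 is its duplicated copy. Fam205a1 and Fam205a2 belong to an uncharacterised gene family, and no function of Gm3893 is given here.

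The likeness of the copies at their start sites is shown here by sequences from RefSeq (build GRCm38.p6), each from 250 bases before to 50 bases after an annotated start. Most of each window lies before the start, so the windows do not show which genes a probe set can tell apart. The Fam205a2 window at chr4:42528188-42528487 (minus strand) and the Fam205a1 window at chr4:42853839-42854138 (minus strand) had the same base at 284 of 286 aligned positions, 99.3%. Capitals mark bases that differ from the partner or have no partner inside the aligned stretch.

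Fam205a2: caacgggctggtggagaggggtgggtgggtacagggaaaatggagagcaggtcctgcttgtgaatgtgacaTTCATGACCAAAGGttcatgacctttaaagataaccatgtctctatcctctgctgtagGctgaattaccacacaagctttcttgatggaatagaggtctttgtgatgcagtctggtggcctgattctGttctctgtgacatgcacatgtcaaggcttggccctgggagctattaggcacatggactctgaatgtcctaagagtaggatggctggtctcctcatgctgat
Fam205a1: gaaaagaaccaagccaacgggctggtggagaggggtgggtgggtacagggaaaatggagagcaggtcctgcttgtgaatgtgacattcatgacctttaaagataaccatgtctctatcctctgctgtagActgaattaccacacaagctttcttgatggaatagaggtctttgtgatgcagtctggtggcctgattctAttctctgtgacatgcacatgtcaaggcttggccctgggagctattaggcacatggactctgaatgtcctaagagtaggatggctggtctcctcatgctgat

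Apart from 2 substituted bases, the Fam205a2 window held a run of capitals with no counterpart in Fam205a1. The Ccl21a window at chr4:42773942-42774241 (minus strand) and the window of its copy Ccl21d at chr4:41903363-41903662 (plus strand) had the same base at 297 of 299 aligned positions, 99.33%, with capitals as before.

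Ccl21a: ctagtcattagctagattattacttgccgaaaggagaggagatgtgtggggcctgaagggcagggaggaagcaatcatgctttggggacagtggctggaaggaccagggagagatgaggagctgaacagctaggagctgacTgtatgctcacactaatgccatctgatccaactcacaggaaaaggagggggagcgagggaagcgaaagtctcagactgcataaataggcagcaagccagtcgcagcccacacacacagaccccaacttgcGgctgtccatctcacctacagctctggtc
Ccl21d: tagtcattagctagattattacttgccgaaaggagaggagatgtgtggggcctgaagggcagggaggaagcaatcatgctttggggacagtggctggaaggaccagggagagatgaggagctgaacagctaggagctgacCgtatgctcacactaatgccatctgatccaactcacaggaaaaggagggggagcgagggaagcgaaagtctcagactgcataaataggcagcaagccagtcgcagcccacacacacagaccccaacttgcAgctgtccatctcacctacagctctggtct

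A Ccl27a window and a Ccl27b window were alike at 286 of 288 aligned positions, 99.31%. The windows of the predicted genes Gm13304 and Gm10591, which share the Ccl21 probe sets, were identical over all 300 bases. Of 16 start windows of member genes, 12 held a run of 100 bases found unchanged in the same orientation in another gene's window, 75.0% of them, against 1601 of 32851 windows of all genes, 4.87%. No window of Gm3893 was in the table used here.

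Likeness between probe sets was also seen in the array values. Some probe sets carried exactly the same 6 values as another probe set to 5 decimals and so gave 1 measurement, called a profile here. Among member probe sets 28 of 55 stood in such a shared profile, 50.9%, against 1395 of all 41345, 3.37%, and the 55 held 39 different profiles. In 52 of 55 the eNOS-deficient mean was the higher one, and in 3 the wild-type mean was. The median difference, eNOS-deficient minus wild type, was 0.49 log2, against -0.019 over all probe sets. In 25 of 55, or 21 of 39 profiles, every eNOS-deficient array stood above every wild-type array. That held for 8.89% of all probe sets, and the reverse for 8.88% of all probe sets and for 0 members. In the fit over the whole table, 6 member probe sets were higher with an adjusted p under 0.05 (limma, Benjamini-Hochberg) and 0 lower, against 9 higher, 0.0218%, and 0 lower among all probe sets. With each array centred on its median, the calls over all probe sets were 17 higher and 2 lower. Without an adjustment, 2053 of all probe sets were higher and 2132 lower at p under 0.05. These counts describe genes chosen on this contrast and support nothing further. With 1 array left out, 5 member probe sets were called without wild type 5, against 6 of all probe sets. Leaving out any other array gave 0 members, against 1 of all probe sets without eNOS-deficient 15 and 0 in the remaining fits. With each array left out in turn, the difference of the Gm3893 probe set 17413075, 2.45 log2 on all arrays, lay between 2.35 and 2.58. Those of Ccl19 and Ccl21 moved more for their size, as given below.

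Gm3893 carried the widest separation of the cluster. The probe set 17413075, which listed only Gm3893, stood at 8.49, 8.18 and 8.52 log2 on eNOS-deficient 11, 15 and 19, against 5.88, 5.75 and 6.22 on wild type 2, 3 and 5. The lowest eNOS-deficient array lay 1.97 above the highest wild-type array, a gap wider than the range inside either group, 0.34 in eNOS-deficient samples and 0.46 in wild-type samples. In this direction the gap was wider than both ranges in 486 of all 41345 probe sets, 16 of them members. It was at least 1 log2 in 29 of all probe sets, 11 of them members. The means were 8.40 ± 0.19 in eNOS-deficient samples and 5.95 ± 0.24 in wild-type samples (SD, n = 3 each), a difference of 2.45 (standard error 0.18), or 5.45-fold.

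The other probe sets that listed Gm3893 alone were alike. Probe set 17412962 read 8.36, 8.10 and 8.51 log2 on the eNOS-deficient arrays, against 5.56, 5.51 and 6.14 on the wild-type arrays, a difference of 2.59 (standard error 0.21). That was the 6th largest difference of the whole table in the direction higher in eNOS-deficient samples. Probe set 17412952 read 7.91, 7.48 and 7.87 on the eNOS-deficient arrays, against 5.56, 5.38 and 5.83 on the wild-type arrays, a difference of 2.16 (standard error 0.19). Within each group the arrays stood close together on all 3 probe sets. The groups did not overlap, which held in this direction for 8.89% of all probe sets.

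A further 12 probe sets, in 9 profiles, listed Gm3893 together with 4933409K07Rik, an uncharacterised gene. In 8 of them, or 7 profiles, the difference lay between 1.38 and 2.34 log2 and the groups did not overlap, while 8.89% of all probe sets were higher without overlap. Over these 8 the eNOS-deficient arrays read 7.33 to 8.10 and the wild-type arrays 5.30 to 6.57. The other 4, in 2 profiles, were flat, with differences of 0.06 and 0.09, eNOS-deficient arrays at 7.16 to 7.41 and wild-type arrays at 7.07 to 7.37. Probe sets with the same pair of symbols thus gave differences of unlike size. Which copy each of these probe sets reads cannot be told from its symbols.

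The last Gm3893 probe set, 17424352, also listed the predicted genes Gm21586, Gm20878, Gm21953 and LOC100862220. It read 6.20, 6.81 and 6.96 log2 on the eNOS-deficient arrays, against 5.85, 6.27 and 5.51 on the wild-type arrays, a difference of 0.78 (standard error 0.27). Its groups overlapped, because wild type 3 stood above eNOS-deficient 11. Over Gm3893's 16 probe sets, 11 in 10 profiles lay above a difference of 1 log2, with a median of 2.01, and 0.622% of all probe sets differed by at least that much in this direction. Among the Gm3893 probe sets, the one just inside that line was at 1.38 and the next below it was 17424352 at 0.78.

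Probe sets that listed 4933409K07Rik alone are no members and showed the same split. Probe set 17434290 read 7.60, 7.04 and 7.71 log2 on the eNOS-deficient arrays, against 5.83, 5.96 and 5.74 on the wild-type arrays, a difference of 1.61. Of the 8 probe sets, in 5 profiles, 3 did not overlap between the groups, this one and an identical pair at 1.00, and 5 overlapped with differences from -0.22 to 0.13. Of all probe sets, 8.89% were higher without overlap. The RefSeq table gives 4933409K07Rik no usable place in the order of chromosome 4.

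A probe set with no listed symbol, 17434158, resembled the Gm3893 probe sets in its difference. It read 8.60, 8.27 and 8.54 log2 on the eNOS-deficient arrays, against 5.94, 5.65 and 6.18 on the wild-type arrays, a difference of 2.55. It was 1 of 3 unnamed probe sets among the 9 called over the table. The other two were an identical pair at 5.90, 6.47 and 6.32 on the eNOS-deficient arrays, against 3.95, 3.79 and 4.10 on the wild-type arrays, a difference of 2.28. No gene is given to them here.

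Fam205a2 stood higher in eNOS-deficient aorta on all 5 of its probe sets, each of which listed it alone. Probe set 17434251 read 6.75, 6.92 and 7.12 log2 on the eNOS-deficient arrays, against 5.35, 5.45 and 5.37 on the wild-type arrays. The means were 6.93 ± 0.18 in eNOS-deficient samples and 5.39 ± 0.05 in wild-type samples (SD, n = 3 each), a difference of 1.54 (standard error 0.14). The wild-type arrays lay a little under the median of all probe sets, 5.59, and the groups stood 1.299 apart. It was 1 of the 29 probe sets of the whole table with a gap of at least 1 log2 in this direction. An identical pair of probe sets, 17412987 and 17434129, differed less. It read 6.06, 6.15 and 6.16 log2 on the eNOS-deficient arrays, against 5.42, 5.27 and 5.22 on the wild-type arrays, a difference of 0.82 (standard error 0.13). The remaining identical pair, 17413094 and 17424415, read 6.30, 6.06 and 6.53 on the eNOS-deficient arrays, against 5.54, 5.53 and 5.50 on the wild-type arrays, a difference of 0.78 (standard error 0.16). None of the 5, in 3 profiles, overlapped between the groups, and 8.89% of all probe sets were likewise higher without overlap. Of the 5, 0 were among the calls higher, against 0.0218% of all probe sets. Although listed under Fam205a2 alone, these probe sets may also take up RNA of Fam205a1. This was not tested, since their probe sequences were not used here and the start windows shown above lie mostly before the start.

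**Figure D1:**
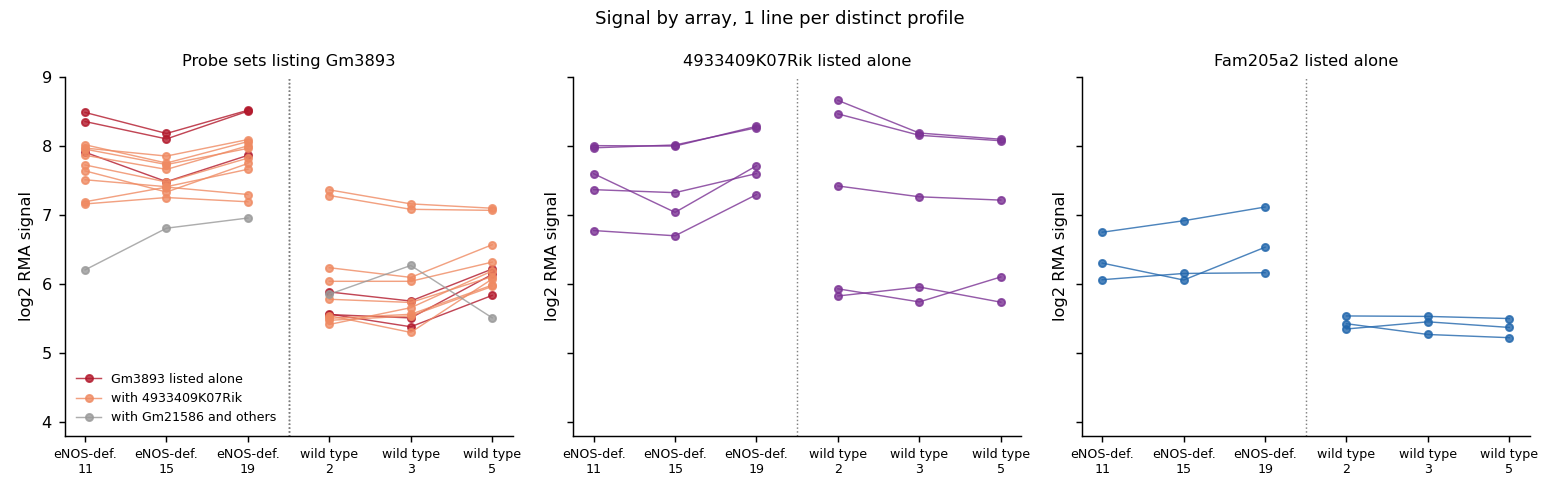
Log2 signal (vertical axis) by array of each profile that lists Gm3893 (left panel), 4933409K07Rik alone (middle) or Fam205a2 (right), with eNOS-deficient arrays left of wild-type arrays and 1 point per array. The 3 probe sets that list Gm3893 alone sit between 7.48 and 8.52 on eNOS-deficient arrays and between 5.38 and 6.22 on wild-type arrays, while the flat shared profiles stay between 7.07 and 7.41 in both.

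Il11ra1 and Il11ra2 had no probe set to their names, so the receptor itself gave no value. Genes around it were measured for 21 of 24 in a list of interleukin-11 and gp130 cytokine genes. By limma 0 of 21 passed the adjusted p, and 0 were at an unadjusted p under 0.05, against 10.1% of all probe sets in either direction. Differences ran from -0.18 to 0.35 log2 with a median of 0.041, 11 of them positive and 10 negative. Il11, the ligand, was 4.86 ± 0.04 in eNOS-deficient samples and 4.97 ± 0.19 in wild-type samples (SD, n = 3 each), a difference of -0.11 (limma adjusted p = 0.820). Il6st, which encodes gp130, was 10.53 ± 0.19 in eNOS-deficient samples and 10.29 ± 0.11 in wild-type samples, a difference of 0.24 (limma adjusted p = 0.624). Among other members of the list, Il6ra, the interleukin-6 receptor, differed by 0.18, the signal transducer Stat3 by 0.064, and Socs3, an inhibitor of this signalling, by -0.044. Apart from the genes just named, the smallest p-values belonged to Osmr, the oncostatin M receptor, at 0.35 (standard error 0.21), Il27, Cntfr and the kinase Jak1, none past the adjusted p.

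The Ccl21 probe sets were bright and did not separate the genotypes. All 9, in 5 profiles, listed Ccl21a and Ccl21b together with Ccl21c, Ccl21d, Gm10591, Gm13304, Gm1987 and LOC100041593, so no value belongs to a single copy. The brightest, 17434285, read 10.15, 11.52 and 11.62 log2 on eNOS-deficient 11, 15 and 19, against 10.87, 10.46 and 10.73 on wild type 2, 3 and 5. eNOS-deficient 11 was thus the lowest of the 6 arrays and eNOS-deficient 15 and 19 the highest. The means were 11.10 ± 0.82 in eNOS-deficient samples and 10.69 ± 0.21 in wild-type samples (SD, n = 3 each), a difference of 0.41 (standard error 0.39). The other Ccl21 profiles differed by 0.39 to 0.41. The median over the 5 profiles was 0.87 without eNOS-deficient 11, 0.20 without eNOS-deficient 15 and 0.15 without eNOS-deficient 19.

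Ccl19 followed the same arrays. It was listed on 13 probe sets in 9 profiles, always with other genes. On 17413033 it read 8.16, 9.88 and 9.92 log2 on the eNOS-deficient arrays, against 9.04, 8.68 and 8.73 on the wild-type arrays, a difference of 0.50 (standard error 0.47). Of the 13, 12 were of this kind, with differences of 0.46 to 0.65 and overlapping groups. The other one, 17424452, was dim, at 5.47, 5.49 and 5.57 on the eNOS-deficient arrays, against 5.28, 5.18 and 5.41 on the wild-type arrays. Its groups did not overlap, but the gap of 0.069 was small beside the standard error of 0.13 of its difference, 0.22. The median over the 9 profiles was 1.07 without eNOS-deficient 11 and 0.22 without eNOS-deficient 15.

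The means of lymphocyte and lymph node markers varied over the same arrays. The mean log2 signal of 9 of 10 lymphocyte markers was 5.81, 8.32 and 8.64 on the eNOS-deficient arrays, against 7.67, 8.16 and 7.82 on the wild-type arrays. Lymph node stroma markers, 5 of 5, averaged 6.21, 7.95 and 7.75 on the eNOS-deficient arrays, against 7.69, 7.65 and 7.84 on the wild-type arrays. By these means eNOS-deficient 11 was the lowest array in both lists, as for Ccl19 and Ccl21. The stroma markers Madcam1 and Chst4 were not lowest on it. Madcam1 read 5.57, 5.67 and 5.49 on the eNOS-deficient arrays, against 5.59, 5.63 and 5.84 on the wild-type arrays. Chst4 read 5.286, 5.45 and 5.30, against 5.285, 5.42 and 5.68. No marker of either list had a mean over the 6 arrays under 4.38, the 25th percentile of such means over the table. On eNOS-deficient 11 itself the B cell marker Cr2 stood at 4.19. Lymphatic endothelial markers, 7 of 7, averaged 7.39, 7.56 and 7.71 on the eNOS-deficient arrays, against 7.07, 7.23 and 7.07 on the wild-type arrays. The part of these cells in the chemokine signal was not tested. In bulk tissue fewer cells of a type and less RNA per cell cannot be told apart.

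**Figure D2:**
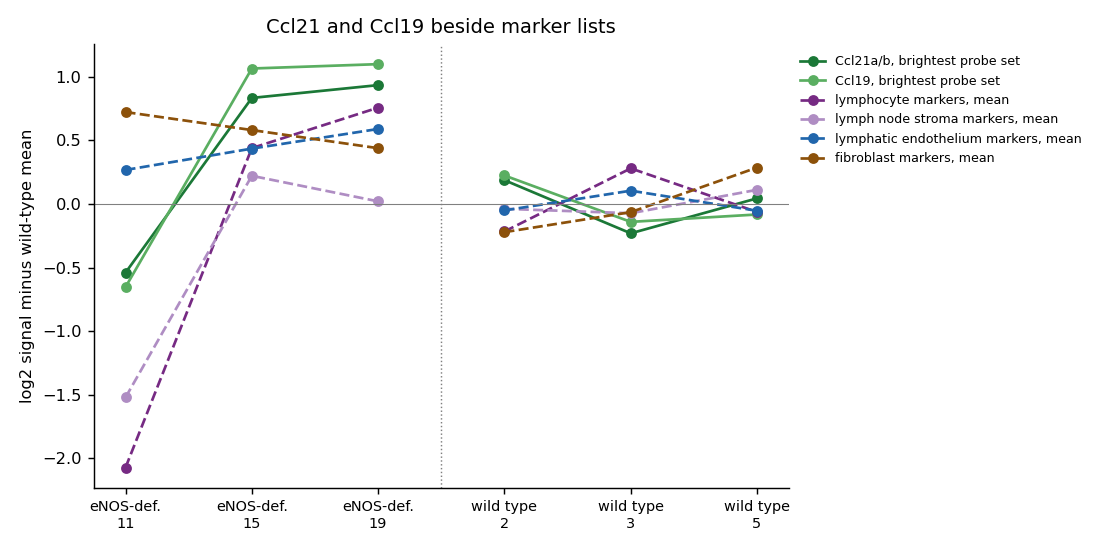
Log2 signal minus its own wild-type mean (vertical axis) by array, for the brightest Ccl21 and Ccl19 probe sets (solid lines) and the means of the lymphocyte, lymph node stroma, lymphatic endothelium and fibroblast markers (dashed lines), with eNOS-deficient arrays left of wild-type arrays. Ccl21, Ccl19, the lymphocyte markers and the lymph node stroma markers are all lowest on eNOS-deficient 11.

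The Ccl27 probe sets gave differences of under 1 log2 in both of their kinds. All 8 that listed Ccl27a with Ccl27b, in 7 profiles, were higher in eNOS-deficient aorta without overlap, by 0.27 to 0.55 log2 with a median of 0.44. Of all probe sets, 8.89% were higher without overlap, and these 8 list the same copies, so they are not separate observations. The probe set with the largest difference, 17434254, read 7.35, 7.40 and 7.12 on the eNOS-deficient arrays, against 6.63, 6.58 and 6.999 on the wild-type arrays, a difference of 0.55 (standard error 0.17). The gap between the groups was 0.12, since wild type 5 stood close to eNOS-deficient 19. The 4 probe sets that listed Ccl27a without Ccl27b all overlapped. Of these, 3 were identical and flat at 6.91, 6.96 and 6.89 on the eNOS-deficient arrays, against 7.15, 6.74 and 6.88 on the wild-type arrays. The fourth, 17424331, read 5.59, 5.68 and 5.33 on the eNOS-deficient arrays, against 5.38, 5.12 and 5.42 on the wild-type arrays, a difference of 0.23 (standard error 0.16).

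Ccl27b was listed on 1 further probe set, 17424360, one of the 8 separating ones above, together with Gm3893, 4933409K07Rik, Gm13306 and LOC100861978. It read 7.64, 7.33 and 7.75 log2 on the eNOS-deficient arrays, against 5.50, 5.56 and 5.98 on the wild-type arrays, a difference of 1.89 (standard error 0.19). Its 6 values were identical to those of 17434197, a Gm3893 probe set that did not list Ccl27b, and it resembled the Gm3893 probe sets and not the Ccl27 ones. The markers of squamous epithelium, the tissue in which CCL27 is made, averaged 5.26, 5.21 and 5.20 on the eNOS-deficient arrays, against 6.08, 5.50 and 7.96 on the wild-type arrays (13 of 14 markers). The high mean of wild type 5 came with Krt4 at 13.33, Krt13 at 12.18, Lor at 10.53 and Krt14 at 7.38 on that array. Krt14 read 5.38, 5.04 and 5.30 on the eNOS-deficient arrays and 5.40 and 5.19 on wild type 2 and 3. The keratins Krt10 and Krt1 stood at 5.65 and 4.96 on wild type 5 and differed between the genotypes by -0.19 and -0.26. The part of epithelium in the Ccl27 signal was not tested.

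**Figure D3:**
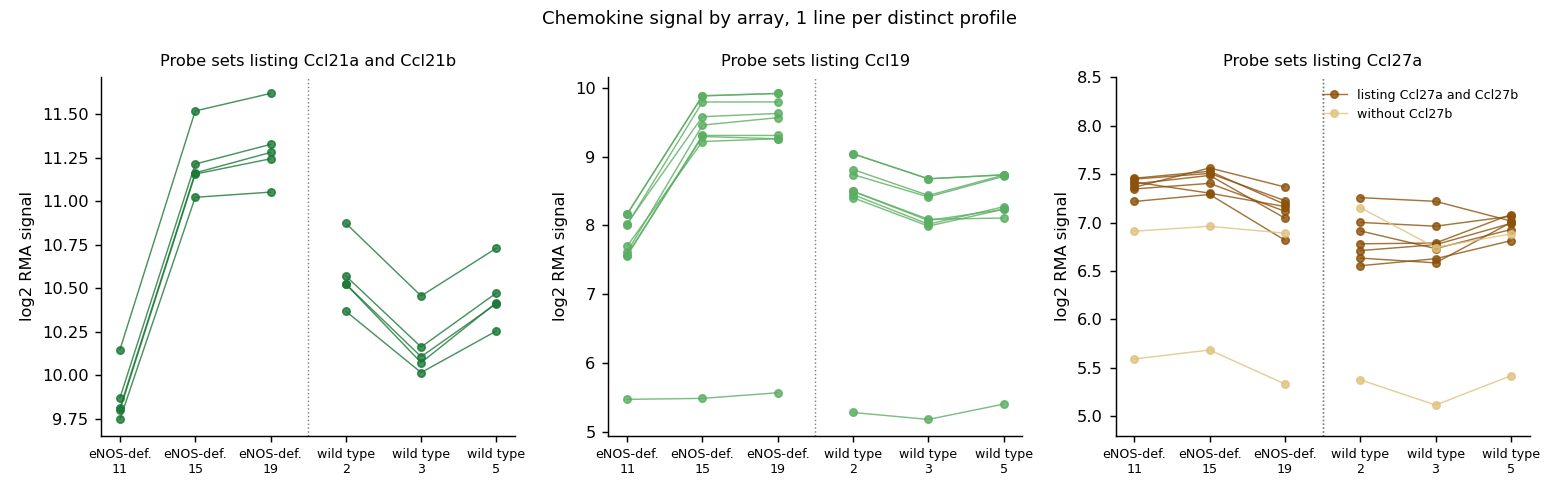
Log2 signal by array of the Ccl21, Ccl19 and Ccl27 profiles, with eNOS-deficient arrays left of wild-type arrays and 1 point per array. The Ccl21 profiles overlap between the groups, with eNOS-deficient 11 lowest, while the probe sets that list Ccl27a with Ccl27b differ by 0.27 to 0.55 without overlap. Of all probe sets, 8.89% are higher in eNOS-deficient samples without overlap.

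Receptors and partners of these chemokines were measured for 19 of 20 genes of a list on CCR7, CCR10 and lymphoid chemokines. By limma 0 of 19 passed the adjusted p and 0 were at an unadjusted p under 0.05, against 10.1% of all probe sets in either direction. Differences ran from -0.39 to 0.58 log2 with a median of 0.043, 10 positive and 9 negative. Ccr7, the receptor of CCL19 and CCL21, read 6.01, 8.29 and 8.96 on the eNOS-deficient arrays, against 7.47, 7.94 and 7.18 on the wild-type arrays, a difference of 0.22 (limma adjusted p = 0.941). It was lowest on eNOS-deficient 11, like its ligands. Ackr4, a scavenger receptor of the same ligands, read 5.17, 5.29 and 5.04 on the eNOS-deficient arrays, against 4.95, 4.74 and 4.96 on the wild-type arrays, a difference of 0.28 (limma adjusted p = 0.557). Ccr10, the CCL27 receptor, was 5.16 ± 0.05 in eNOS-deficient samples and 5.11 ± 0.05 in wild-type samples (SD, n = 3 each). Apart from these receptors, the smallest p-values in this list belonged to Ackr3, a scavenger of CXCL12, at 0.37 (limma adjusted p = 0.516), Pdpn, which encodes podoplanin, at 0.58, and the cytokines Lta at -0.27 and Tnfsf14 at -0.25.

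The genes on both sides of the cluster had a median difference close to that of all probe sets, -0.019 log2. The members lie in the RefSeq gene order between Il11ra1 and Fam205a1, and the 25 nearest measured genes on each side gave 50 flanking genes. By limma 0 of 50 passed the adjusted p, and 1 was at an unadjusted p under 0.05, 2.0% against 10.1% of all probe sets. Their median difference was -0.017 log2, with 24 positive and 26 negative, from -0.62 for Aqp3, a water channel, to 0.37 for Tpm2, a muscle tropomyosin. The nearest measured gene beyond Il11ra1, Arid3c, read 5.61, 6.003 and 5.36 on the eNOS-deficient arrays, against 5.73, 5.72 and 5.78 on the wild-type arrays. The nearest beyond Fam205a1, Fam205c, read 5.21, 5.17 and 5.28 on the eNOS-deficient arrays, against 5.21, 5.24 and 5.30 on the wild-type arrays. Both differences, -0.085 for Arid3c and -0.034 for Fam205c, were smaller than their standard errors. The smallest p of the flank belonged to Gba2, a glucosylceramidase, at 7.26 ± 0.08 in eNOS-deficient samples and 7.71 ± 0.16 in wild-type samples (limma adjusted p = 0.419). It was followed by Dctn3 at 0.31, Stoml2 at 0.32, Ubap1 at 0.27 and Kif24 at -0.28, none past the adjusted p. Between the outermost members lay 41 other genes, of which 12 were listed on a probe set, always shared with a member.

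**Figure D4:**
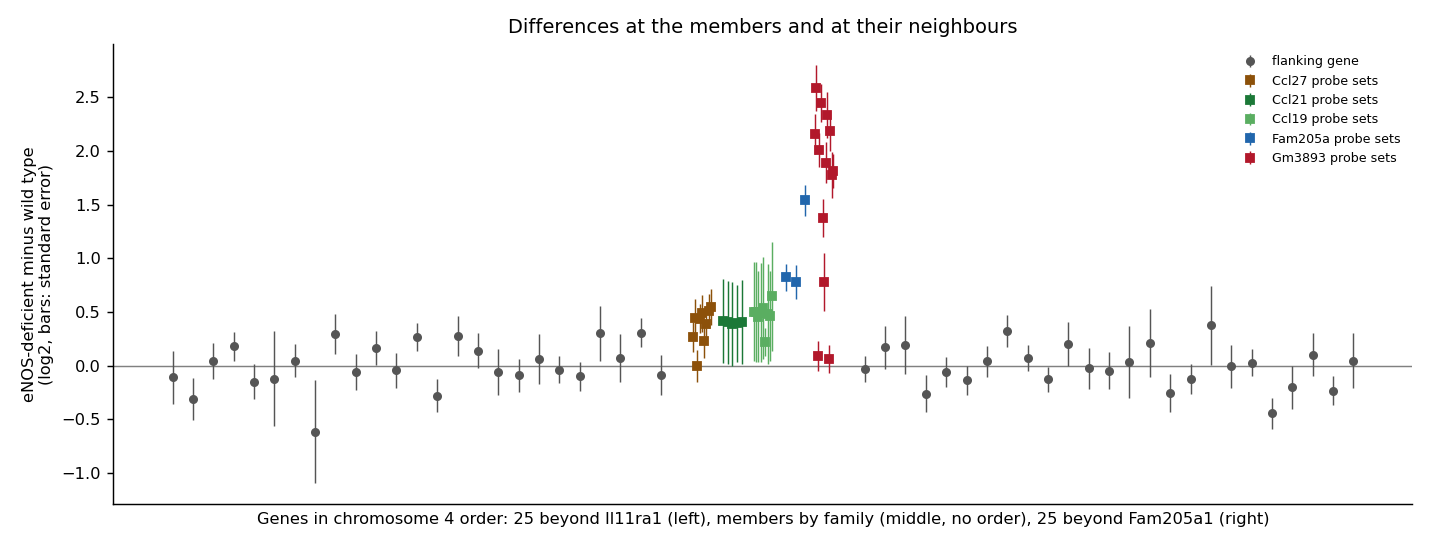
Difference in log2 signal, eNOS-deficient minus wild type (vertical axis), with bars for the standard error. Flanking genes run along the horizontal axis in the RefSeq order of chromosome 4, not to distance, with member profiles by family and without order in the middle. The flanking genes lie between -0.62 and 0.37 with a median of -0.017, and the Gm3893 profiles reach 2.59.

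The genes whose signals ran most alike over the 6 arrays were named as a description, since they were sought among genes that vary and 6 arrays in 2 genotypes share much. For Gm3893 on 17413075 these were Prss23 (Pearson's r = 0.994), Npnt (0.994), Mrc1 (0.987), Timp1 (0.987) and Cygb (0.983). That probe set was chosen after its values were seen, because the brightest Gm3893 probe set, 17413100, is a flat one shared with 4933409K07Rik, most like Vmn2r100 (r = 0.931). For Fam205a2 the most alike were Efhd1 (0.995), Mrc1 (0.994), Maf (0.982), Fn1 (0.981) and Ace (0.981). For the Ccl21 probe set they were Apol7c (0.997), Flt3 (0.977), Gpr182 (0.968), Clec4g (0.963) and Cd27 (0.962). None of these genes lies on chromosome 4.

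Facts of the whole series bear on these values. Nos3, the targeted gene, read 7.13, 7.39 and 7.27 log2 on the eNOS-deficient arrays, against 7.99, 7.88 and 7.36 on the wild-type arrays, a difference of -0.48 (limma adjusted p = 0.489), and where its probes lie relative to the targeted part is not given. Array medians were 5.55 to 5.59 in eNOS-deficient samples and 5.61 to 5.68 in wild-type samples. Smooth muscle markers (10.53 to 10.76 in eNOS-deficient, 10.14 to 10.51 in wild-type aorta) and endothelial markers (8.40 to 8.82 in eNOS-deficient, 8.41 to 9.24 in wild-type aorta) stood for the main cell types of the aortic wall and were above the array medians. Brown adipocyte markers averaged 12.15 to 12.45 in eNOS-deficient samples and 12.11 to 12.43 in wild-type samples. Beside the Gm3893 and Fam205a2 differences, fibroblast markers averaged 9.76, 9.62 and 9.48 on the eNOS-deficient arrays, against 8.82, 8.98 and 9.33 on the wild-type arrays, with 7 of 7 higher by their means. Y-linked genes, 3 of 4, averaged 7.76, 4.71 and 8.002 on the eNOS-deficient arrays, against 3.63, 3.54 and 3.47 on the wild-type arrays. On each of the 3 genes every eNOS-deficient array stood above every wild-type array, but eNOS-deficient 15 stood closer to the wild-type arrays than to eNOS-deficient 11 and 19. Kdm5d read 6.95, 4.24 and 7.46 on the eNOS-deficient arrays, against 4.04, 3.57 and 3.53 on the wild-type arrays. The Gm3893 probe set 17413075 read 8.49, 8.18 and 8.52 on the same eNOS-deficient arrays. The sex of the samples is not given, and its part in the differences between the groups was not tested. No marker of these lists passed the adjusted p (limma), and their part in the cluster's differences was not tested. Testis germ cell markers were at 3.94 to 4.06 in eNOS-deficient samples and 3.92 to 4.13 in wild-type samples, with 4 of 6 measured markers under 4.38 by their mean over the 6 arrays.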

How the data were processed

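RNA of 3 eNOS-deficient and 3 wild-type aorta samples was measured on 1 Affymetrix array each (300 ng of RNA, per the labels' protocols). The deposited values are log2 signals made with RMA in Affymetrix Expression Console 1.3.1, per the submitters' processing notes, and were used unchanged. The sources used here give no array design, genome build or single-probe values. RMA quantile normalization evens out total signal, and near-identical copies share probes.

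Symbols came from the platform annotation: 23525 probe sets listed 1 symbol, 1810 several and 16010 none. A fit of eNOS-deficient minus wild type was made with limma 3.58.1 in R 4.3.3 (lmFit, eBayes without trend, no covariates, no dim filter) over 41345 probe sets, with Benjamini-Hochberg adjustment at 0.05. The median standard error of a difference was 0.19 log2. The script was tested on simulated data. Differences of members carry no p, because the members and all gene lists were chosen with earlier results of these data known. Other genes were read on the probe set listing them alone with the highest mean. Named were all member probe sets, Nos3, set key genes and the smallest p of each list (5 in the flank, up to 4 in the others), and the 5 genes most alike in pattern among those ranging over at least 1 log2. Aqp3, Tpm2, and the single-symbol Gm3893 pattern were added after values were seen. RefSeq order (GRCm38.p6) gave flanking genes, and start windows were aligned with Biopython 1.88. Plots used matplotlib 3.10.9 in Python 3.11.15.

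Alternatives were dim filters at the 25th and 50th percentile, a trend with robust variance, median centring, repeated quantile normalization, array weights, each array left out, other flank widths and averaging all probe sets of a gene. Counting each shared profile once was chosen after seeing the data.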

Additional observations from a re-analysis of the deposited data

How the results depend on the processing

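Counts of calls moved with the processing, and the cause was not tested. Against 9 higher and 0 lower of all probe sets, and 6 higher members, there were 18, 6 and 10 with the 25th percentile filter and 15, 5 and 10 with the 50th, where fewer probe sets were tested. There were 17, 5 and 10 with an intensity trend and robust variance, 17, 2 and 10 with median centring, and 19, 7 and 11 with array weights. Repeated quantile normalization gave 10 higher and 0 lower. Leaving out 1 array gave 0 to 6 higher of all probe sets, 0 to 5 higher members and 0 lower of either. No member was called lower in any of these fits.

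All 39 member profiles moved by less than their replicate spread under centring, repeated quantile normalization, array weights and each array left out, and 38 or 39 kept their sign. For Ccl21 and the brighter Ccl19 profiles that spread was widened by eNOS-deficient 11, so it says little about stability. The Ccl19 and Ccl21 medians were 1.07 and 0.87 without eNOS-deficient 11, and 0.21 and 0.15 without eNOS-deficient 19. The median differences of the flanking, interleukin-11 and CCR7 lists also moved by less than their own replicate spread under every alternative run. With each array left out they ranged from -0.069 to 0.057, from -0.036 to 0.14 and from -0.079 to 0.18. No paired analysis was possible because the groups share no replicate number. With 3 arrays a group and a median standard error of 0.19, differences the size of the Ccl27 ones stand near the limit of what was measurable, and probes shared between copies limit every value to a group of copies.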
